A study of Homo sapiens with 6 samples.

Results

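Kinesins are motor proteins that walk along microtubules, and the kinesin genes were followed here in 786-O cells whose CBX7 had been targeted by a short hairpin RNA. 786-O is an established human renal cancer cell line, derived from a clear cell carcinoma and lacking a working VHL gene. CBX7 is a chromobox subunit of a Polycomb repressive complex, and the series title places it in an axis with RNF26 linked to TNF signalling, to growth of the cells and to their response to tyrosine kinase inhibitors. Both groups were 786-O cells: 3 libraries came from cells labelled sh-Control and 3 from cells labelled sh-CBX7, with no drug, time point or other treatment in the labels. The labels give no hairpin sequence, and nothing in them tells separate cultures from repeat preparations of 1 culture. The p-values therefore measure only how far these libraries spread, which may be technical. The kinesin genes were chosen by name, as the protein-coding genes whose symbol has the form KIF or KIFC with a number, or KLC with a number for the light chains. The rule found 46 genes among the 58735 of the table. It reads names alone, but the family was taken up with earlier results of these data known.

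Kinesins couple ATP hydrolysis to movement along, or shortening of, microtubules. Mitotic kinesins build the spindle, align chromosomes, arrange the central spindle and complete cytokinesis, and their transcripts are known to accumulate in G2 and mitosis in dividing cells. Transport kinesins carry vesicles, organelles, protein complexes and RNA. The conventional kinesin pairs KIF5 heavy chains with light chains of the KLC family, whereas a second transport motor pairs KIF3 subunits with the accessory protein KIFAP3. Further kinesins work in cilia and centrioles. The 46 genes were placed from textbook roles into 14 mitotic genes, 17 transport motors, 4 light chains, 6 genes of cilia and centrioles, and 5 with several or other roles.

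CBX7 itself was lower in the libraries labelled sh-CBX7. Its counts were 203, 240 and 183 in sh-Control and 143, 111 and 142 in sh-CBX7, so the groups did not overlap. On the counts-per-million (CPM) scale, which divides by library size, this was 12.2 ± 0.98 CPM (SD, n = 3) against 7.44 ± 0.67 CPM and corresponded to -0.71 on the log2 scale (SE 0.127 and adjusted p = 5.41e-05 in edgeR). The libraries held 16384151 to 18868874 counted reads. All 7 markers of renal epithelial origin were present at a mean of 1 CPM or more. CDH5 of endothelium and PTPRC and CD3E of immune cells had no read in any library, while PECAM1 of endothelium was at a mean of 1.47 CPM in sh-Control and 2.38 CPM in sh-CBX7, where it was called higher, and CD14 of immune cells at 1.62 and 1.36 CPM. The summed CPM of 3 endothelial markers was 1.62 to 2.33 in sh-Control and 2.48 to 3.4 in sh-CBX7, and that of 4 immune markers was 1.21 to 2.04 and 0.955 to 1.86. The summed CPM of 3 fibroblast markers was 4.12 to 4.57 in sh-Control and 1.57 to 2.39 in sh-CBX7, and the part of such cells in the results was not tested. In a bulk library, fewer cells of a kind, such as cells in mitosis, and less RNA of a gene per cell cannot be told apart.

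Most kinesin genes that could be tested differed between the groups, and most of those were lower in sh-CBX7. Of the 39 kinesin genes with enough reads, 20 fell, 7 rose and 12 did not pass the test, which was edgeR's quasi-likelihood test across 14573 genes with an adjusted p below 0.05. Among all tested genes 27.2% were lower and 26.1% were higher, 53.3% in either direction, while 51.3% of the tested kinesin genes were lower and 17.9% were higher. The median log2 fold change of the tested kinesin genes was -0.30, against -0.01 for all tested genes. The CPM ranges of the groups did not overlap for 29 kinesin genes, or 74.4%, where 59.0% of all tested genes had groups that did not overlap. The 29 include KIF17 and KIF26A, which each passed the filter on low counts through 1 group only. KIF4A, KIF18B and KIF5B fell by more than 1 on the log2 scale, and KIF17 and KIF6 rose by more than 1. The count of 7 genes that rose was 4 when sh-Control 2, sh-Control 3, sh-CBX7 1 or sh-CBX7 3 was left out.

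**Figure D1:**
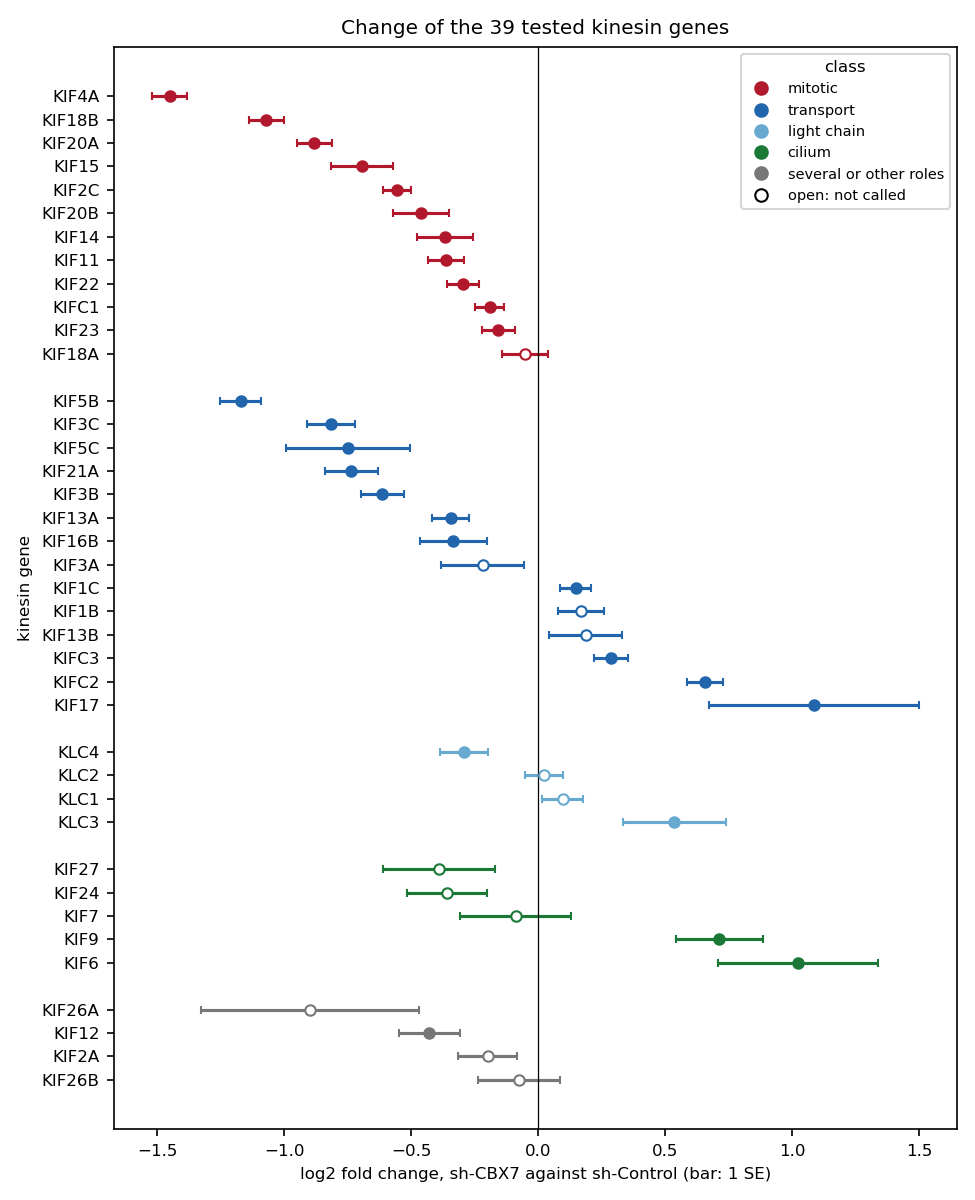
The log2 fold change of each of the 39 tested kinesin genes, sh-CBX7 against sh-Control, is plotted on the horizontal axis with a bar of 1 SE, in 5 classes; filled points passed an adjusted p of 0.05 and open points did not. All 12 mitotic genes lie below 0, KIF18A alone with an open point, whereas the transport motors run from -1.17 for KIF5B to 1.09 for KIF17.

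The 7 kinesin genes left untested had too few reads. KIF1A and KIF5A, motors known from neurons, and KIF2B, a mitotic motor, had no read in any library, where 3 counts would correspond to 0.159 to 0.184 CPM. KIF4B, an intronless copy of KIF4A, had 2, 5 and 5 counts in sh-Control and 2, 1 and 7 in sh-CBX7, and reads of KIF4A could have been split with it. KIF19 had no read in sh-Control and 1, 0 and 7 in sh-CBX7. KIF21B and KIF25 stayed below 1 CPM. KIF17 passed the filter on low counts only through sh-CBX7 and KIF26A only through sh-Control, so a difference between the groups was built into their passing. Without this pair, 20 kinesin genes were lower and 6 were higher.

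The mitotic class moved in 1 direction: 11 of its 12 tested genes were lower in sh-CBX7, none was higher and KIF18A did not pass the test. The share of all tested genes that fell was 27.2%. The median of the 12 log2 fold changes was -0.41, and the CPM ranges of the groups were apart for 10 of the 12, where 59.0% of all tested genes had groups that did not overlap. Among the transport motors, described below, the ranges were apart for 12 of 14, counting KIF17, which passed the filter only through sh-CBX7. The largest decreases were in a chromosome-binding motor, KIF4A, and a motor that limits microtubule length, KIF18B.

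KIF4A and KIF22 are chromokinesins, motors that bind chromosome arms, and KIF4A also works at the central spindle. KIF4A (ENSG00000090889, plus strand of chromosome X, 70290090 to 70420832 on GRCh38) was at 127, 149 and 142 CPM in sh-Control and at 51.1, 52.7 and 49.2 CPM in sh-CBX7. Its highest sh-CBX7 library was thus well under its lowest sh-Control library. The log2 fold change was -1.45 (SE 0.0691 and adjusted p = 6.93e-14 in edgeR), leaving 36.6% of the control level. KIF22 (ENSG00000079616, chromosome 16, 29790719 to 29805385) changed less, from 198, 171 and 175 CPM to 153, 142 and 148 CPM, with no overlap between the groups. On the log2 scale KIF22 changed by -0.30 (SE 0.0631 and adjusted p = 0.000394 in edgeR).

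KIF18A, KIF18B and KIF2C act on microtubule ends: KIF18A dampens the movements of chromosomes at the spindle equator, KIF18B shortens astral microtubules, and KIF2C depolymerises microtubules at centromeres. KIF18B (ENSG00000186185, minus strand of chromosome 17, 44924709 to 44947711) was at 84.6, 86.5 and 93.7 CPM in sh-Control. In sh-CBX7 it was at 41.7, 40.4 and 43.9 CPM, below every control library. The log2 fold change was -1.07 (SE 0.0682 and adjusted p = 1.07e-11 in edgeR). KIF18A, of the same family, was at 27.1, 32.6 and 34.9 CPM in sh-Control and at 31.4, 30.4 and 29.4 CPM in sh-CBX7, so its groups overlapped. Its log2 fold change of -0.05 (SE 0.092 and adjusted p = 0.657 in edgeR) had a 95% interval of -0.23 to 0.13. Per kilobase of gene length, KIF18B was at 3.13, 2.66 and 2.70 times the level of KIF18A in sh-Control and at 1.33, 1.33 and 1.5 times in sh-CBX7. KIF2C fell from 226, 216 and 216 CPM to 148, 152 and 148 CPM, a log2 fold change of -0.56 (SE 0.055 and adjusted p = 1.53e-08 in edgeR).

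KIF11, KIF15 and KIFC1 arrange the spindle poles. KIF11 slides antiparallel microtubules apart, KIF15 can take over part of that work, and KIFC1 is a minus-end motor that gathers microtubules into poles and clusters extra centrosomes. KIF15 showed the widest change of the 3, from 19.8, 24.5 and 23.4 CPM to 13, 16.8 and 12.3 CPM. All its sh-CBX7 libraries were below all control libraries, with a log2 fold change of -0.69 (SE 0.121 and adjusted p = 4.53e-05 in edgeR). Part of KIF15 lies over TMEM42, a gene on the same strand. KIF11 was at 64.9, 74.6 and 71.1 CPM in sh-Control and at 53.1, 57.9 and 52.7 CPM in sh-CBX7, without overlap, a log2 fold change of -0.36 (SE 0.0705 and adjusted p = 0.000147 in edgeR). KIFC1, the most abundant kinesin transcript per length, moved from 217, 197 and 202 CPM to 185, 176 and 178 CPM. Its groups were apart, and its log2 fold change was -0.19 (SE 0.0572 and adjusted p = 0.00699 in edgeR).

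Cytokinesis motors fell by widely different amounts. KIF20A carries the chromosomal passenger complex to the central spindle, KIF23 forms the centralspindlin complex with RACGAP1, KIF14 works with citron kinase at the midbody, and KIF20B acts late in cytokinesis. KIF20A (ENSG00000112984, chromosome 5, 138178719 to 138187715) was at 123, 137 and 135 CPM in sh-Control and at 77.1, 72.3 and 64.8 CPM in sh-CBX7. Every sh-CBX7 library was lower than every control library, with a log2 fold change of -0.88 (SE 0.0697 and adjusted p = 3.78e-10 in edgeR). KIF20B went from 23.0, 30.5 and 27.4 CPM to 17.8, 21.5 and 19.5 CPM, also apart, a log2 fold change of -0.46 (SE 0.109 and adjusted p = 0.00109 in edgeR). KIF14 went from 17.4, 23.0 and 19.5 CPM to 15.3, 14.9 and 16.3 CPM, a log2 fold change of -0.37 (SE 0.112 and adjusted p = 0.00822 in edgeR). Without sh-Control 2, the highest control library for KIF14, its adjusted p was 0.0787.

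KIF23 stood near the threshold. It was at 104, 113 and 112 CPM in sh-Control and at 95.8, 106 and 93.3 CPM in sh-CBX7, so 1 sh-CBX7 library lay inside the control range. The log2 fold change was -0.16 (SE 0.0645 and adjusted p = 0.0437 in edgeR). The call was lost under 9 of 14 alternatives, among them leaving out sh-Control 2 (adjusted p = 0.106), sh-Control 3 (0.126), sh-CBX7 1 (0.139) or sh-CBX7 3 (0.187). CENPE, a kinetochore kinesin whose symbol the rule does not match, was at 17.6, 26.7 and 26.4 CPM in sh-Control and 17.7, 17.9 and 15.4 CPM in sh-CBX7. Its groups overlapped through sh-Control 1, and its log2 fold change was -0.47 (SE 0.129 and adjusted p = 0.00374 in edgeR).

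**Figure D2:**
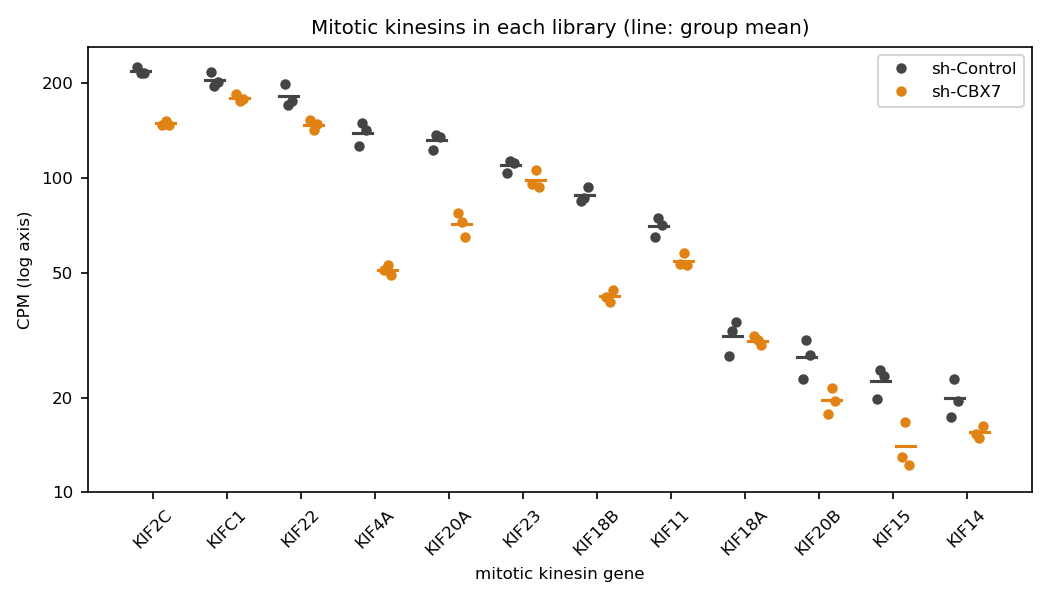
CPM of the 12 tested mitotic kinesin genes on a log axis, 1 point per library and a line at the mean of each group of 3, ordered by the control mean. The groups are widest apart for KIF4A and KIF18B, and they overlap for KIF23 and KIF18A.

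The windows around the gene starts were searched for letters known from promoters of genes that peak in G2 and mitosis. These were the cell cycle genes homology region (CHR), TTTGAA, its variant TTCGAA, and the CCAAT box, CCAAT, each on both strands; in the kinesin windows no match overlapped another. A window ran from 250 bases before to 50 bases after a start in RefSeq on GRCh38.p14, and 36 of the 46 kinesin genes had one; KIFC3, KIF19, KLC4, KIFC2, KIF21B, KIF13B, KIF26B, KLC2, KIF5A and KIF27 had no match in that table. A gene was counted if any of its windows held the letters. Of all 35116 windows, 15.2% held TTTGAA, 1.45% held TTCGAA, 34.6% held CCAAT and 5.9% held both TTTGAA and CCAAT.

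Among the 14 mitotic kinesin genes, 10 had TTTGAA, 11 had CCAAT and 9 had both. KIF22 had the variant, KIF20A had CCAAT alone, and KIF2B and KIF2C had none of the 3. Of the other 22 kinesin genes with a window, KIF5B alone had TTTGAA, and 4 of the 12 transport motors had CCAAT. A match is a description of letters and not a binding site. In the mitotic genes TTTGAA lay between base -55 and base 36, counting from 1 at the start on which the window was set and from -1 upstream. That base was the RefSeq gene start in 33 of 45 windows of kinesin genes. The KIF20A stretch printed below, for example, lies inside the span given above for that gene.

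The stretches printed here are from 4 mitotic genes with large changes (KIF4A, KIF18B, KIF20A and KIF15), from KIF11 and KIF22, which changed less and show TTTGAA read from the other strand and the variant, from KIF18A, which did not pass the test although its window holds the same pair of motifs as that of KIF18B, and from KIF5B. They run 5′ to 3′ on the strand of the gene, and capitals mark the motifs, which read TTCAAA and ATTGG where they lie on the other strand. The coordinates are on GRCh38.p14.
KIF4A, chrX:70290040-70290081, plus strand, bases -64 to -23: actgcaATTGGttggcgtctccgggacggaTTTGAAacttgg
KIF18B, chr17:44947760-44947834, minus strand, bases -61 to 14: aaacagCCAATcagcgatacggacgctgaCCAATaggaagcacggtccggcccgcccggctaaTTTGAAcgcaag
KIF18A, chr11:28108155-28108207, minus strand, bases -51 to 2: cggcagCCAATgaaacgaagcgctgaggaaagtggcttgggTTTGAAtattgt
KIF20A, chr5:138179012-138179055, plus strand, bases -100 to -57: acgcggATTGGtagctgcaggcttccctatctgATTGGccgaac
KIF15, chr3:44761753-44761770, plus strand, bases -41 to -24: gccaaaTTCAAAtttgcg
KIF11, chr10:92593071-92593113, plus strand, bases -59 to -17: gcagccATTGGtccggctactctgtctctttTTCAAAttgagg
KIF22, chr16:29790679-29790735, plus strand, bases -72 to -16: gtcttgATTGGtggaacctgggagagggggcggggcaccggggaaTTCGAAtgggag
KIF5B, chr10:32056474-32056571, minus strand, bases -146 to -49: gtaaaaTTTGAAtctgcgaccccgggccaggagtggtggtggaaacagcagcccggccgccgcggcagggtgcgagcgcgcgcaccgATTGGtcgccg

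KIF2C, with none of the motifs in its window, fell by 0.56 on the log2 scale, and KIF18A, with both, had a change of -0.05. KIF4A and KIF18B, which also hold both, changed by -1.45 and -1.07. Whether the letters bear on the changes was not tested. TTTGAA was in the windows of 15 of 18 matched genes from a list of mitotic partners of kinesins and 23 of 39 other G2 and mitosis genes. It was in 4 of 25 cargo adaptors and regulators of kinesin and 2 of 26 subunits and partners of dynein.

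**Figure D3:**
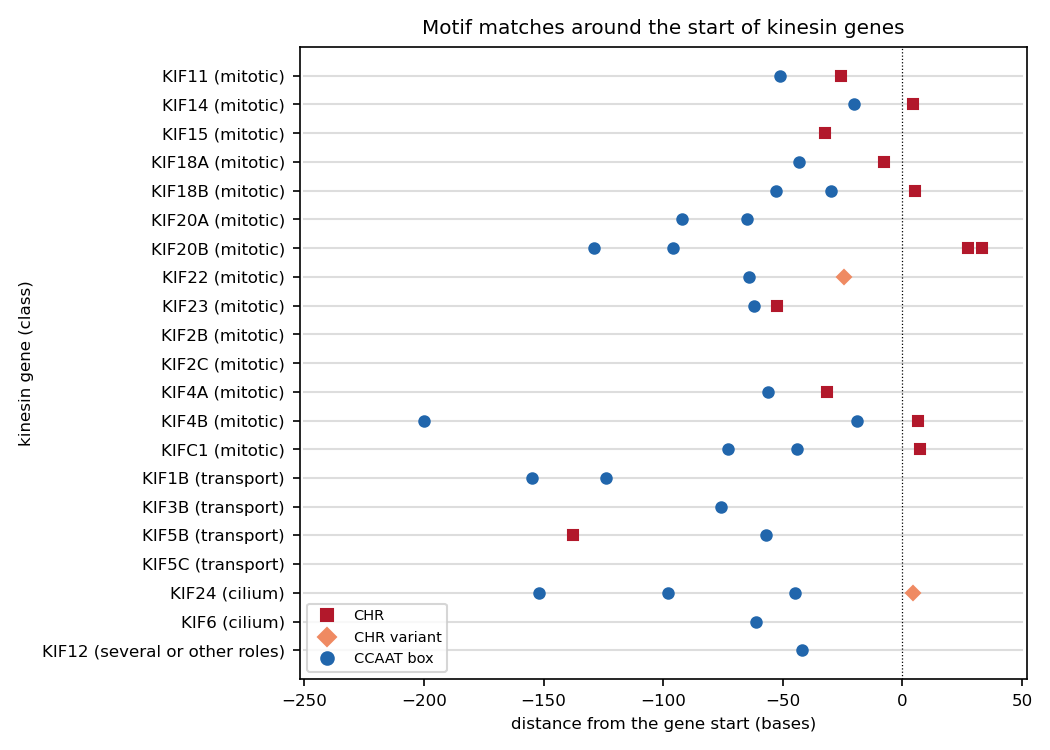
Positions of the 3 motifs along the first RefSeq window of each mitotic kinesin gene and of each other kinesin gene with a match in any window. The horizontal axis, labelled as distance from the gene start, is the distance in bases from the start on which the window was set. Squares (CHR) and circles (CCAAT) sit close to the start in most mitotic genes, KIF5B is the transport gene with a square, and the row of KIF5C is empty because its match was in another window.

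The transport motors did not move as 1 group. Of 14 tested, 7 were lower in sh-CBX7 and 4 were higher, beside 27.2% and 26.1% of all tested genes, and the median log2 fold change was -0.28. The CPM ranges of the groups were apart for 12 of the 14, KIF17 among them, or 85.7%, beside 59.0% of all tested genes. The motors that fell were KIF5B, KIF5C, KIF3B, KIF3C, KIF21A, KIF13A and KIF16B. Those called higher were KIFC2, KIFC3, KIF1C and KIF17. KIF17 passed the filter on low counts only through sh-CBX7, where it is high, and without it 3 of 13 were higher, 7 were lower and the median was -0.34. The count of 4 that rose was 2 without sh-Control 2, sh-Control 3, sh-CBX7 2 or sh-CBX7 3, and also 2 with no filter on low counts.

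KIF5B is the heavy chain of conventional kinesin in most tissues, carrying mitochondria, lysosomes and vesicles outward. KIF5B (ENSG00000170759, minus strand of chromosome 10, 32009010 to 32056431) was at 93.5, 117 and 107 CPM in sh-Control and at 43.5, 51.4 and 46.2 CPM in sh-CBX7. Each sh-CBX7 library was far below each control library. Its log2 fold change of -1.17 (SE 0.0806 and adjusted p = 3.86e-11 in edgeR) was the lowest of the transport motors, and among all kinesin genes the change of KIF4A was larger. KIF5C, a heavy chain known from neurons, was at 2.89, 3.79 and 2.52 CPM in sh-Control and at 1.75, 1.81 and 1.92 CPM in sh-CBX7. These groups were apart, with a log2 fold change of -0.75 (SE 0.243 and adjusted p = 0.0123 in edgeR), which became an adjusted p of 0.0992 without sh-Control 2. KIF5C had 255 counts over the 6 libraries. The neuronal markers NEFL, SNAP25 and SYT1 were above 1 CPM in both groups, SNAP25 was higher in sh-CBX7, ELAVL3 had at most 1 count in a library, and the summed CPM of 6 neuronal markers was 171 to 177 in sh-Control and 186 to 203 in sh-CBX7; their part in the values of neuronal kinesins was not tested.

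Light chains link the heavy chains of conventional kinesin to cargo, and of the 4, KLC3 was higher, KLC4 was lower and the other pair did not pass. This is 25% in each direction, near the 26.1% higher and 27.2% lower among all tested genes. KLC2 was at 89.9, 72.4 and 76.9 CPM in sh-Control and at 83.9, 76.1 and 82.5 CPM in sh-CBX7, with overlapping groups and a log2 fold change of 0.02 (95% interval -0.13 to 0.17, edgeR adjusted p = 0.831). KLC1 was at 43.5, 40.0 and 43.4 CPM and at 40.9, 44.8 and 49.8 CPM, again overlapping, with a log2 fold change of 0.10 (95% interval -0.06 to 0.25, edgeR adjusted p = 0.325). Neither light chain passed the test, and both intervals exclude a fall of the size seen for KIF5B. KLC4 was lower, at 27.2, 24.0 and 27.2 CPM against 21.7, 22.0 and 20.3 CPM. Its groups did not overlap, and its log2 fold change was -0.29 (SE 0.0941 and adjusted p = 0.0115 in edgeR), with an adjusted p of 0.0503 without sh-Control 3. KLC3 was scarce and higher, at 3.13, 2.75 and 2.70 CPM against 4.72, 3.32 and 4.35 CPM. The KLC3 groups were apart, with a log2 fold change of 0.54 (SE 0.202 and adjusted p = 0.0293 in edgeR). Without sh-Control 2, sh-Control 3, sh-CBX7 1 or sh-CBX7 3 the adjusted p of KLC3 was 0.0691, 0.08, 0.134 or 0.0872. KLC1, KLC3 and KLC4 lie partly over other expressed genes (XRCC3, ERCC2 and CUL7 among them, on the other strand). Whether reads were counted by strand is not given in the sources used here. KLC1 also lies partly over APOPT1 on its own strand, at a mean of 28.2 CPM, where counting by strand would not help.

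Ratios per kilobase of gene length show how the subunits shifted against each other. The ratio of KLC2 to KIF5B was 1.03, 0.662 and 0.774 in sh-Control and 2.07, 1.59 and 1.92 in sh-CBX7, a rise of the mean from 0.822 ± 0.189 to 1.86 ± 0.246 (SD, n = 3). All sh-CBX7 libraries had the higher ratio. The ratio of KLC4 to KIF5B rose from 0.229 ± 0.0395 to 0.416 ± 0.0347, although KLC4 itself fell, and that of KIF5C to KIF5B from 0.0185 ± 0.00298 to 0.0249 ± 0.00213, although KIF5C fell too. Of 9 subunit and paralog ratios computed, 8 did not overlap between the groups, and each of these had an exact two-sided permutation p of 0.1, the smallest that 3 against 3 libraries can give. The pairs were chosen with the values of their genes known, so these counts and p-values are descriptions. The ratios of KLC1, KLC2, KLC4 and KIF5C share the denominator KIF5B, and those of KIF3A, KIF3C and KIFAP3 share KIF3B. The fall of the shared gene thus enters each ratio. Among all tested single genes 59.0% had groups that did not overlap, and the share among other gene pairs was not computed. The deposited gene length counts all annotated exons, so the per-length level of a gene with many isoforms, KLC1 above all with 19251 bases, is understated.

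Transcripts of the second transport motor changed unequally. KIF3A and KIF3B form its usual motor pair, KIF3C can replace a partner, and KIFAP3 binds the tail for cargo. KIF3B was at 34.6, 36.2 and 34.0 CPM in sh-Control and at 21.8, 24.0 and 22.8 CPM in sh-CBX7. KIF3C was at 30.9, 31.8 and 29.3 CPM and at 18.3, 16.1 and 17.8 CPM. Both were lower in every sh-CBX7 library than in any control library, by -0.61 (SE 0.0846 and adjusted p = 2.1e-06 in edgeR) for KIF3B and -0.82 (SE 0.0938 and adjusted p = 1.49e-07 in edgeR) for KIF3C on the log2 scale. KIF3A was at 11.2, 9.90 and 7.49 CPM in sh-Control and at 6.26, 9 and 9.42 CPM in sh-CBX7. Its groups overlapped, and its log2 fold change was -0.22 (95% interval -0.54 to 0.10, edgeR adjusted p = 0.266). The ratio per length of KIF3A to KIF3B overlapped between the groups, at 0.289, 0.243 and 0.196 in sh-Control and 0.256, 0.334 and 0.368 in sh-CBX7 (exact two-sided permutation p = 0.2).

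KIFAP3, which the symbol rule does not match, went the other way. It was at 11.4, 14.4 and 14.1 CPM in sh-Control and at 17.7, 18.7 and 17.4 CPM in sh-CBX7, so the groups were apart. The log2 fold change was 0.43 (SE 0.112 and adjusted p = 0.00251 in edgeR). Per length, KIFAP3 was at 0.404, 0.488 and 0.507 times the level of KIF3B in sh-Control and at 0.999, 0.954 and 0.938 times in sh-CBX7. KIF17, a homodimeric motor of the same family, had 14, 7 and 6 counts in sh-Control and 20, 19 and 21 in sh-CBX7. The groups did not overlap, with a log2 fold change of 1.09 (SE 0.413 and adjusted p = 0.031 in edgeR). KIF17 passed the filter on low counts only through sh-CBX7, where it is high. A difference between the groups was thus built into its passing, and these values are no support for a rise. The call of KIF17 was lost under 7 of 13 alternatives; without sh-Control 2 the adjusted p was 0.128, without sh-Control 3 it was 0.131, and without sh-CBX7 1, 2 or 3 it was 0.0577, 0.0748 or 0.0803.

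**Figure D4:**
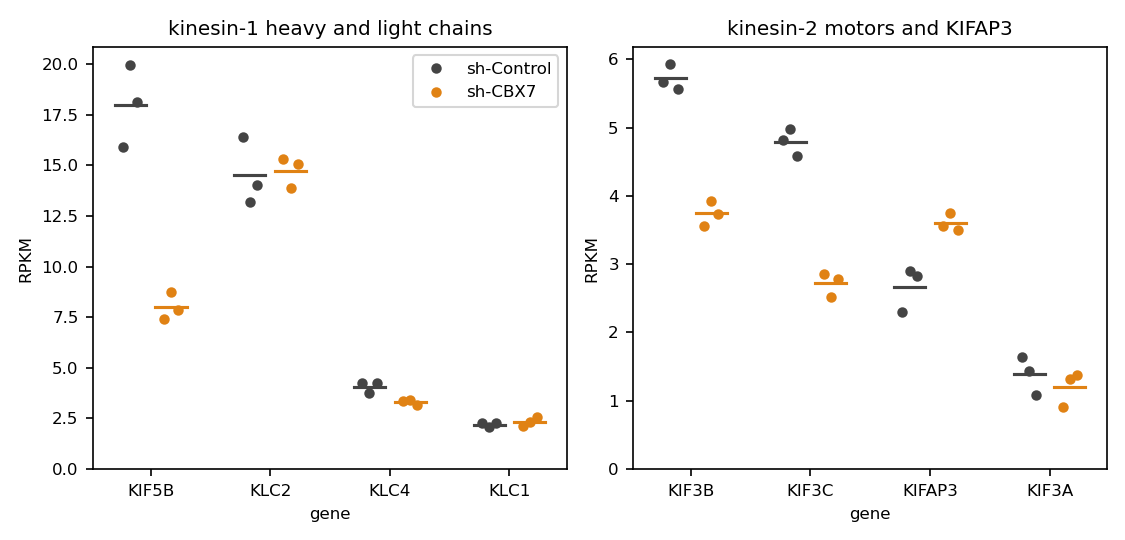
CPM divided by gene length in kilobases (RPKM) in each of 6 libraries, with a line at each group mean, for subunits of conventional kinesin on the left and of the KIF3 motor on the right. KIF5B drops from 18.0 to 8.0 RPKM while KLC2 stays near 14.6 and 14.7 RPKM, and KIFAP3 rises where KIF3B and KIF3C fall.

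The remaining plus-end transport motors split. KIF21A, which holds back microtubule growth at the cell cortex, fell from 21.6, 24.3 and 23.4 CPM to 12.4, 14.5 and 14.8 CPM, with no overlap. KIF21A changed by -0.74 on the log2 scale (SE 0.106 and adjusted p = 3.78e-06 in edgeR). KIF13A, an endosomal motor, fell from 60.9, 60.5 and 58.1 CPM to 47.3, 42.9 and 51.1 CPM, also without overlap, by -0.34 on the log2 scale (SE 0.0729 and adjusted p = 0.000378 in edgeR). KIF16B, which binds early endosomes, was at 12.4, 13.4 and 10.6 CPM in sh-Control and at 10.4, 10.3 and 8.07 CPM in sh-CBX7. The groups just failed to overlap, with a log2 fold change of -0.34 (SE 0.132 and adjusted p = 0.0363 in edgeR). Without sh-Control 1, sh-Control 2 or sh-CBX7 3 the adjusted p of KIF16B was 0.0513, 0.143 or 0.198.

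KIF1C, a vesicle and RNA carrier, was at 105, 103 and 104 CPM in sh-Control and at 109, 113 and 122 CPM in sh-CBX7. All sh-CBX7 libraries were above the control libraries, yet the log2 fold change was small, at 0.15 (SE 0.0615 and adjusted p = 0.0488 in edgeR). Its call was lost under 6 of 14 alternatives, with an adjusted p of 0.093 without sh-Control 2, 0.132 without sh-Control 3, 0.0912 without sh-CBX7 2 and 0.265 without sh-CBX7 3. KIF1B and KIF13B did not pass the test, with log2 fold changes of 0.17 (95% interval -0.01 to 0.34) and 0.19 (95% interval -0.10 to 0.47).

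Minus-end kinesins carry their motor at the other end of the protein, and their tested members were split between a mitotic gene that fell, KIFC1, and a pair of transport genes that rose. KIFC2, described in neurons, was at 63.2, 55.6 and 58.1 CPM in sh-Control and at 97.0, 85.9 and 95.8 CPM in sh-CBX7. Every sh-CBX7 library was above every control library, with a log2 fold change of 0.66 (SE 0.0696 and adjusted p = 4.41e-08 in edgeR). KIFC3, found at cell junctions and on endosomes, was at 167, 137 and 145 CPM and at 185, 175 and 187 CPM, also without overlap. The log2 fold change of KIFC3 was 0.29 (SE 0.0669 and adjusted p = 0.001 in edgeR). Both kept their direction and their call under every alternative run.

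Genes of cilia and centrioles were at 1.22 RPKM or less in sh-Control, and 2 of the 5 tested were higher in sh-CBX7 and none was lower, where 26.1% and 27.2% of all tested genes were. KIF9, which works in motile cilia and flagella, was at 3.67, 3.24 and 4.17 CPM in sh-Control and at 5.57, 5.74 and 6.83 CPM in sh-CBX7. The groups were apart, with a log2 fold change of 0.71 (SE 0.171 and adjusted p = 0.00127 in edgeR). An antisense transcript, KIF9-AS1, covers part of KIF9 at a mean of 3.90 CPM, and reads of the pair could be mixed if strand was not used. KIF6, a related motor of ependymal cilia, was at 0.842, 1.16 and 0.982 CPM and at 2.39, 2.11 and 1.58 CPM, without overlap. For KIF6 the log2 fold change was 1.02 (SE 0.314 and adjusted p = 0.00863 in edgeR), with an adjusted p of 0.0521 when sh-CBX7 1 was left out. The summed level of 5 markers of multiciliated cells was 8.23 to 8.84 CPM in sh-Control and 6.88 to 9.07 CPM in sh-CBX7, and 2 of the 5 reached a mean of 1 CPM. Of these, CFAP43 was higher in sh-CBX7 (20, 17 and 25 counts against 60, 35 and 40) and DNAH5 was lower. FOXJ1, which defines such cells, had at most 2 counts in a library, and the part of these markers in the values of KIF6 and KIF9 was not tested.

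KIF7, a regulator of Hedgehog signalling at the tip of the primary cilium, was at 3.43, 2.42 and 3.93 CPM in sh-Control and at 3.03, 2.90 and 3.22 CPM in sh-CBX7, overlapping. Its log2 fold change of -0.09 (95% interval -0.52 to 0.34) did not pass the test. KIF7, at a mean of 3.15 CPM over all libraries, lies partly over TICRR on the other strand, at 12.5 CPM. KIF27, a relative of KIF7, had a log2 fold change of -0.39 (95% interval -0.82 to 0.04). KIF24, which acts on centrioles, had one of -0.36 (edgeR adjusted p = 0.0588). It passed without sh-Control 1 (adjusted p = 0.0191) or sh-CBX7 3 (adjusted p = 0.0466), and with a replicate block.

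Among the 5 genes with several or other roles, 4 were tested, and KIF25 had too few reads. KIF12 was lower in sh-CBX7 and no other passed. This is 25% lower, near the 27.2% of all tested genes. KIF12, expressed in kidney and liver epithelium, was at 21.8, 17.7 and 16.7 CPM in sh-Control and at 12.3, 14.1 and 15.3 CPM in sh-CBX7. The groups did not overlap, with a log2 fold change of -0.43 (SE 0.12 and adjusted p = 0.00445 in edgeR). KIF2A, a microtubule depolymerase of spindle poles and of axons, was at 16.6, 21.6 and 23.3 CPM and at 18.9, 17.9 and 16.7 CPM, overlapping. Its log2 fold change was -0.20 (edgeR adjusted p = 0.158), and without sh-Control 1, the lowest library of both groups, it was -0.33 with an adjusted p of 0.00775. KIF2A lies partly over IPO11 on the same strand, at a mean of 11.6 CPM. KIF26A and KIF26B, which are regarded as lacking motor activity, had log2 fold changes of -0.90 (edgeR adjusted p = 0.0835, 76 counts in all) and -0.08 (edgeR adjusted p = 0.716).

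Set against each other, the mitotic kinesins were on average reduced more than the transport motors in these libraries. The mean log2 CPM over the 12 tested mitotic genes was 6.17, 6.31 and 6.28 in sh-Control and 5.70, 5.75 and 5.68 in sh-CBX7, a difference of -0.54. Over the 14 tested transport motors it was 4.51, 4.51 and 4.37 and then 4.23, 4.30 and 4.34, a difference of -0.17. The sh-CBX7 libraries were below the control libraries in both classes. The mitotic mean exceeded the transport mean by 1.66, 1.80 and 1.91 in sh-Control and by 1.47, 1.45 and 1.34 in sh-CBX7, so the gap was narrower in each sh-CBX7 library, changing by -0.37 on average. KIF17 raises the transport mean of sh-CBX7, since it passed the filter only through that group. Without KIF17 the transport difference was -0.27, and the gap was 1.310, 1.372 and 1.495 in sh-Control and 1.166, 1.148 and 1.035 in sh-CBX7, a change of -0.28. The median log2 fold changes lay closer together, at -0.41 for the mitotic genes and -0.28 for the transport motors, or -0.34 without KIF17. These are descriptions of chosen classes and carry no test.

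The summed level of all kinesin genes was 2082 to 2093 CPM in sh-Control and 1668 to 1690 CPM in sh-CBX7. Mitotic genes made up 58.8%, 60.1% and 60.1% of that sum in sh-Control and 52.5%, 52.9% and 50.6% in sh-CBX7. Transport motors made up 30.3%, 30.2% and 29.4% and then 35.2%, 34.9% and 36.5%. The mitotic sum itself went from 1231, 1254 and 1253 CPM to 882, 882 and 856 CPM. The transport sum did not rise with its share. It was 634, 630 and 613 CPM in sh-Control and 591, 583 and 617 CPM in sh-CBX7, so its groups overlapped.

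**Figure D5:**
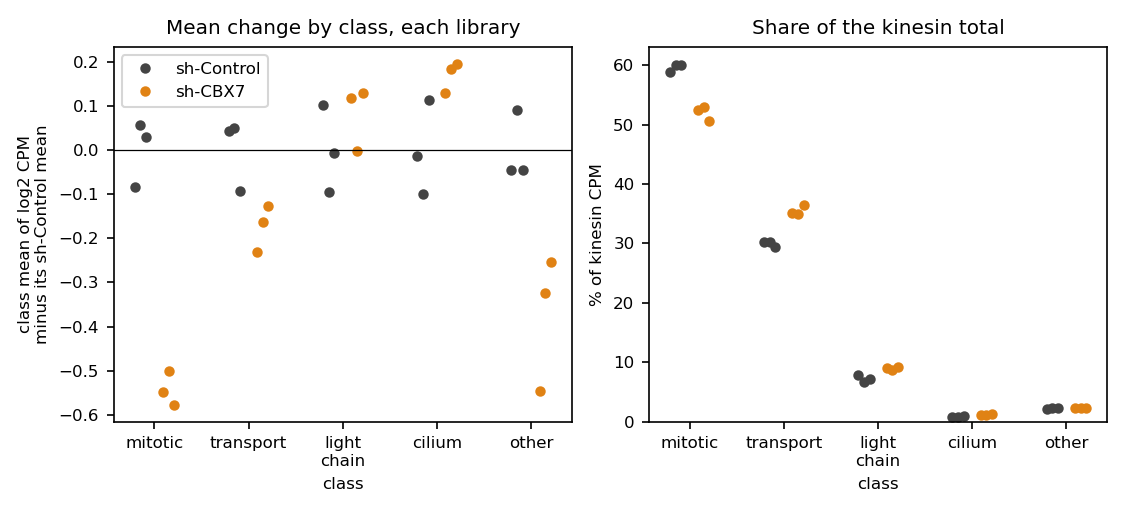
On the left, the mean log2 CPM of the tested genes of each class in each library, minus the sh-Control mean of that class; on the right, the share of the summed kinesin CPM held by each class in percent, where "other" stands for several or other roles. The mitotic points of sh-CBX7 lie below all mitotic points of sh-Control on the left, and on the right the mitotic share is 50.6% to 52.9% against 58.8% to 60.1% in sh-Control.

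By kinesin family, which groups genes by the sequence of the motor domain, the members of 1 family could differ in direction. Both tested members of family 1 (KIF5B and KIF5C), both of family 12 (KIF12 and KIF15) and all 3 of family 6 (KIF20A, KIF20B and KIF23) were lower. Both members of family 9 (KIF6 and KIF9) were higher. Family 2 held KIF3B and KIF3C, lower, and KIF17, higher, but KIF17 passed the filter on low counts only through sh-CBX7, where it is high. The call of KIF17 was also lost under 7 of 13 alternatives. Family 14 held KIFC1, lower, and KIFC2 and KIFC3, higher. Family 3 held KIF14, KIF13A and KIF16B, lower, and KIF1C, higher. The calls of KIF1C, KIF16B and KIF14 were lost under 6, 5 and 1 of 14 alternatives. Neither tested member of family 11 (KIF26A and KIF26B) passed.

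Per length, mitotic genes led the order of levels in sh-Control. KIFC1 was at 61.3 ± 3.09 RPKM (SD, n = 3) and KIF2C at 60.1 ± 1.55 RPKM, and their ranges overlapped. KIF22 followed at 42.1 ± 3.41 RPKM, KIF20A at 33.2 ± 1.93 RPKM and KIF4A at 30.8 ± 2.54 RPKM, of which the last pair overlapped. KIF5B, the highest transport motor, was at 18.0 ± 2.03 RPKM, rank 7, and its range overlapped that of KIF18B above it. In sh-CBX7, KIFC1 at 53.7 ± 1.39 RPKM, KIF2C at 40.9 ± 0.612 RPKM and KIF22 at 34.3 ± 1.32 RPKM kept ranks 1 to 3. KIFC2 moved from rank 12 at 13.3 ± 0.876 RPKM to rank 4 at 20.9 ± 1.36 RPKM. KIF5B moved to rank 13, KIF4A from rank 5 to rank 10 and KIF18B from rank 6 to rank 12.

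Partners of the mitotic kinesins were lower as well. Of 22 genes listed as their partners or regulators, 18 were lower in sh-CBX7 and none was higher, with a median log2 fold change of -0.53, beside 27.2% lower among all tested genes. PLK1, a mitotic kinase that binds KIF20A at the central spindle, had a log2 fold change of -0.94, RACGAP1, the partner of KIF23, had -0.81, and AURKA, a spindle pole kinase, had -0.71. AURKB, BIRC5, ECT2 and PRC1 did not pass, at 0.04, -0.09, -0.09 and -0.35, and they are named after their values were seen. PRC1 was scarce, at a mean of 1.78 CPM in sh-Control and 1.39 CPM in sh-CBX7. Its 95% interval of -0.93 to 0.23 includes the median of the list. Of 47 other genes of G2 and mitosis, 36 were lower and 4 were higher, with a median of -0.41. Those with the smallest p were LMNB1, a nuclear lamin, at -1.87, NCAPD2, a condensin subunit, at -0.99, and TOP2A, a DNA topoisomerase, at -1.14. The 4 that were higher, named after their values were seen, were MYBL2, SKA2, SKA1 and WEE1, at 0.64, 0.34, 0.30 and 0.25.

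Cargo adaptors and regulators of kinesin did not share a direction: 12 of 32 tested were higher, 8 were lower and the median log2 fold change was 0.06. These are 37.5% and 25%, beside 26.1% higher and 27.2% lower among all tested genes. BICD2, an adaptor that links vesicles to motors, had a log2 fold change of 1.36. BICD2 was listed here, whereas the related BICD1, at 0.08, was listed with dynein. CLSTN1, which binds light chains, had -0.997, and MAP7D2, which recruits kinesin to microtubules, had -1.35. Of 29 tested genes of dynein, the minus-end motor that opposes kinesin, and its dynactin complex and adaptors, 17 were lower and 4 were higher, with a median of -0.16. These are 58.6% and 13.8%, beside the same 27.2% and 26.1%. DYNC1H1, the dynein heavy chain, had -0.64, DYNLT1, a dynein light chain, had -0.64, and DCTN5, a dynactin subunit, had -0.90. STARD9, a centrosomal kinesin outside the symbol rule, was higher by 0.42 (edgeR adjusted p = 0.0332).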

How the data were processed

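The deposited table held raw read counts per gene, made by the authors with HISAT2 2.0.5 and featureCounts 1.5.0-p3, per the submitters' processing notes, from poly(A) RNA libraries. Those notes name hg19, but start and end of 58724 of the 58735 genes, and of all 46 kinesin genes, equal GENCODE 29 on GRCh38, so coordinates are given on GRCh38. The table's column names use si where the labels use sh. Whether counting used strand is not given in the sources used here.

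Counts were fitted for all 6 libraries in edgeR 4.0.16 (R 4.3.3; quasi-likelihood test, TMM scaling, filterByExpr, 14573 genes kept), with Benjamini-Hochberg adjusted p-values over all tested genes and a threshold of 0.05. The fit was tested on simulated data in which far fewer genes changed than the 53.3% called here. That test cannot show how the fit behaves when so many genes change. CPM are TMM-scaled, RPKM divide them by the deposited gene length, and class means used log2 CPM with a prior count of 2. Libraries of a group differed by more than counting noise. Alternatives were other scalings, filters, a replicate block, leaving out each library, limma 3.58.1 (voom) and DESeq2 1.42.0.

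The members, classes and lists were chosen with earlier results of these data known. Named genes were every kinesin gene, with values per library for called mitotic genes and for called or highest members of other classes, then CBX7, CENPE, STARD9, KIFAP3 and, from each list, the 3 genes with the smallest p. Values per library of the uncalled KIF18A, KIF3A, KIF7 and KIF2A, and the names of uncalled mitotic partners and of other G2 and mitosis genes that were higher, were added after their values were seen. Class values without KIF17 were also chosen after seeing the data.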

Additional observations from a re-analysis of the deposited data

How the results depend on the processing

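Under the alternatives run, no called kinesin gene changed direction: 18 of 27 kept their call throughout and 9 lost it under at least 1, while 3 of 12 that were not called passed under at least 1. With no filter on low counts 2 transport motors were higher. With light chains counted among them, the median log2 fold change of the transport motors was -0.10. Leaving out each library in turn gave 4 to 7 kinesin genes higher and 16 to 21 lower, 2 to 4 transport motors higher and 5 to 7 lower, and 9 to 11 mitotic genes lower. The mitotic median then ran from -0.50 to -0.35 and the transport median from -0.37 to -0.20, and the number of all genes called higher from 3398 to 3953. The cause of these shifts was not tested. Same-numbered libraries deviated together only weakly, with correlations of 0.0553, 0.0614 and 0.0353. Those of differently numbered libraries were all negative, from -0.0474 to -0.00888. Deviations from a group mean cancel within the group, so positive values for same numbers force negative ones on average elsewhere. The negative values are therefore not a separate observation. Whether the numbers pair the libraries was not tested. A replicate block gave 7 kinesin genes higher and 21 lower, and KIF24 then passed with an adjusted p of 0.038 in edgeR. KIF1B passed under upper quartile scaling (adjusted p = 0.0467), which moved the median of all genes by 0.05. Depth limits KIF26A, KIF17 and KIF6 most, with 76, 87 and 159 counts over 6 libraries.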
